A study of Mus musculus with 8 samples.

Results

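A set of 10 genes was well above background in the kidneys of NEKO mice and in none of the control kidneys, of 18217 named genes on the array. The rule that chose them used the scanner's own detection flag, called well above background, which compares the brightness of a spot with the local background and its noise. A gene was taken when a probe carried this flag on all 4 NEKO arrays and on no control array, and when no other probe of the gene carried it on any control array. Gene families with symbols beginning Ugt, Cyp, Krt, Clec, Gst, Ccl, Cxcl, Col, Mmp, Adh or Upk were left out by the rule. The members are Ppp2r2c, Map7d2, Cntnap2, Meltf, Tmem74, Ffar4, Aldh3a1, Wnt6, Gng4 and Kctd8. With those families kept, 14 genes had the pattern, or 0.0769% of the named genes. The mirror pattern, detection in all control and no NEKO kidneys, was met by 20 genes with the same families left out. Because detection in NEKO against control kidneys chose the members, their levels in these groups are given as a description with no test.

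RNA was taken from whole kidneys of 8 mice aged 8 weeks, of mixed 129Sv/J and C57BL/6J descent, and each mouse was hybridised to 1 Agilent 1-colour array. The 4 NEKO mice, 2 females and 2 males, were Keap1-/-::Nrf2Flox/Flox::K5-Cre. The 4 controls, 2 females and 2 males, were littermates with 1 intact Keap1 allele: 3 were Keap1+/-::Nrf2Flox/Flox::K5-Cre and 1, a female, was Keap1+/-::Nrf2Flox/Flox with no Cre. All 8 mice thus carried the floxed Nrf2 alleles, and no mouse was wild type for Keap1. K5-Cre acts in squamous epithelium, where it deletes Nrf2, while Keap1 is lost from the whole body of NEKO mice. The 4 females shared 1 slide and the 4 males shared the second, which means that effects of sex and of slide cannot be told apart. On each array 61.8% to 65.7% of the probes were well above background, and no spot was saturated. Proximal tubule markers were bright in every kidney, with a summed level of 620 to 821 times the 75th percentile signal of the array in controls and 700 to 789 times in NEKO mice. Keap1 lay between 1.77 and 1.92 in controls and between 0.06 and 0.45 in NEKO mice, on the log2 scale relative to that percentile.

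KEAP1 is an adaptor of a ubiquitin ligase that keeps the transcription factor NRF2 at a low level. When KEAP1 is lost or its cysteines are modified, NRF2 accumulates and, with small MAF proteins, binds antioxidant response elements near genes for detoxifying enzymes, glutathione synthesis and NADPH production. Among the members, Aldh3a1, which oxidises aldehydes to acids, is a known NRF2 target. The others have their best known roles elsewhere. Ppp2r2c, Gng4, Kctd8 and Cntnap2 are best known from neurons, Ffar4 from gut and fat, Wnt6 from development, and Meltf from melanoma cells.

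The word "switched on" holds only for this detection threshold. The scanner also gives a weaker flag, positive and significant, for a spot brighter than its background. Of the 40 control values of the members, 34 carried the weaker flag, and 7 of the 10 members carried it on all 4 control arrays. Tmem74 was the exception, with the weaker flag on no control array, while Map7d2 and Ffar4 carried it on 3. When the weaker flag replaced the stronger one in the rule, 4 genes met it and Tmem74 was the only member among them. The members are therefore called here genes well above background only in NEKO kidneys. In whole-kidney RNA, more cells that express a gene and more RNA per cell cannot be told apart.

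Sequence upstream of the start is shown for Ppp2r2c, the member with the largest bound, and for Cntnap2, which has a pair of annotated starts and probes that differed between transcripts. Each stretch is the 250 bases before a RefSeq start in GRCm38.p6, on the plus strand, with CG dinucleotides in capitals. The Ppp2r2c stretch is chr5:36868260-36868509. The Cntnap2 stretches are chr6:45059811-45060060 and chr6:47244146-47244395.
Ppp2r2c: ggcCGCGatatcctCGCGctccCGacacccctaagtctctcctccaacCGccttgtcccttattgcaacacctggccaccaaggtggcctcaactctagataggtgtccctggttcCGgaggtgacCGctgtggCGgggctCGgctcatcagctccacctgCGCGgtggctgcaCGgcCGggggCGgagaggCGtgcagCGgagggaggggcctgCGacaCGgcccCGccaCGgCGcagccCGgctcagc
Cntnap2, first start: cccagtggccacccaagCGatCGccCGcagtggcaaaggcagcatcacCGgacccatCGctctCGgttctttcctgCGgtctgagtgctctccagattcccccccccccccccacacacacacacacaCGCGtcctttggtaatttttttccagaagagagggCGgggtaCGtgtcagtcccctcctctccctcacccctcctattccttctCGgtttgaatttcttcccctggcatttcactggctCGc
Cntnap2, second start: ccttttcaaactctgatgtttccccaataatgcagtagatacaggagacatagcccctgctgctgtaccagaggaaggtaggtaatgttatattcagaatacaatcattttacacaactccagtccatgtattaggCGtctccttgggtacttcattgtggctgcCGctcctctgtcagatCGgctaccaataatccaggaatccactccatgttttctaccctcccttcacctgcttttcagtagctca

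The Ppp2r2c stretch held 23 CG dinucleotides, above the upper quartile of 16 over all 32851 promoters in the table. The first Cntnap2 start had 13 and the second had 3, against a median of 6 over all promoters. Promoter sequences of 300 bases, which run 50 bases past the start, were given for 8 of the 10 members. These were 11 sequences, since Cntnap2, Gng4 and Map7d2 had 2 each, and Aldh3a1 and Tmem74 had none. The antioxidant response element core, searched as TGACNNNGC on both strands, was in 0 of the 11 and in 12.4% of all promoters in the table. The AP-1 motif, searched as TGANTCA on both strands, was in 0 of the 11 and in 7.81% of all promoters. These counts say only that the letters are not in these windows.

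A level here is log2 of a probe's processed signal divided by the 75th percentile signal of its array, so that 0 is the signal of a probe brighter than 75% of the others. The dimmest probe that still counted as well above background lay between -5.68 and -5.18 on the 8 arrays, and this value is called the detection floor. A member's control level lies under the detection threshold, so its fold has only a lower bound. For the bound, each control array entered with the probe's signal or the detection floor, whichever was larger, and the NEKO mean was set against the mean of these. The order of these bounds is not an order of true folds. The bounds ran from 1.65-fold to 16.6-fold with a median of 2.96, and 9 of the 10 were at least 2-fold. These bounds, and each "at least" below, hold for the processed signal. With another background correction, normexp, they were lower for every member, from 1.31-fold for Kctd8 to 5.90-fold for Ppp2r2c. Map7d2 came next to Ppp2r2c there, at 2.31-fold, and the other members were under 2-fold. Only 1 member, Ppp2r2c, passed the 75th percentile of any NEKO array.

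**Figure D1:**
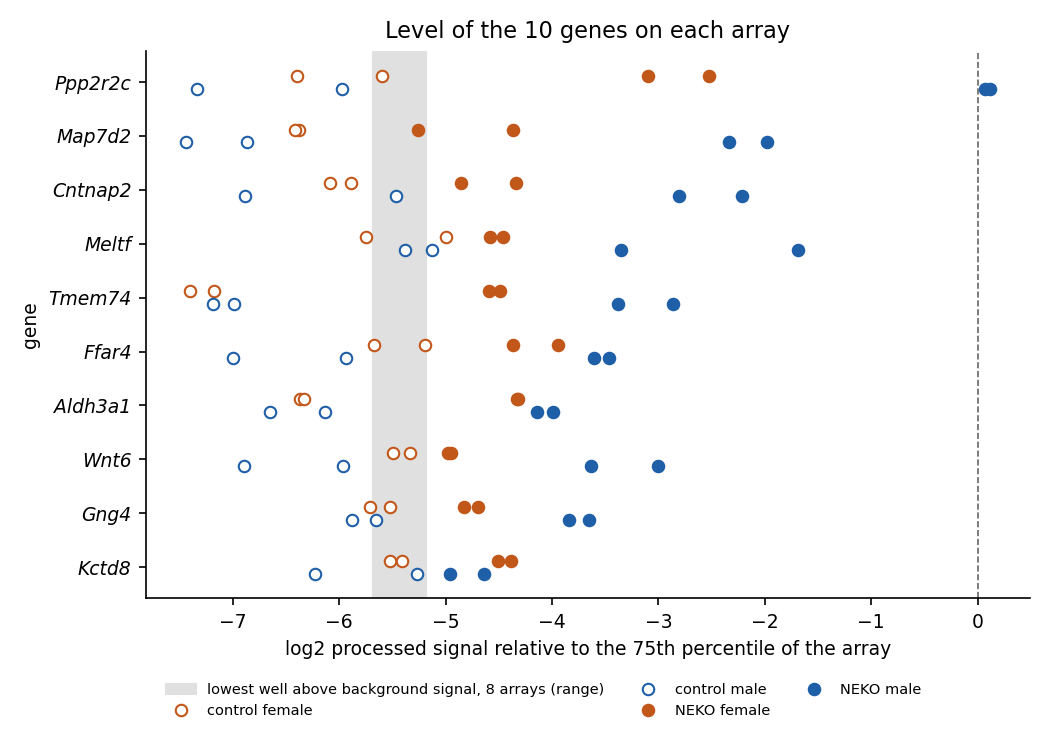
Level of each of the 10 genes on the 8 arrays, in log2 units from the 75th percentile signal of each array (dashed line). Filled points are NEKO and open points control kidneys, orange for females and blue for males, and the grey band spans the detection floors, -5.68 to -5.18. Ppp2r2c reached the dashed line in both NEKO males, and Meltf, Wnt6 and Kctd8 have the NEKO points closest to the control points, with gaps of 0.41, 0.35 and 0.30.

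Ppp2r2c encodes a regulatory B subunit of protein phosphatase 2A, which helps to choose the substrates of the enzyme. Its level was -3.10 and -2.52 in the NEKO females and 0.11 and 0.07 in the NEKO males. In controls it was -6.39 and -5.60 in the females and -7.34 and -5.98 in the males. The NEKO mean of -1.36 ± 1.69 (SD, n = 4) was at least 16.6-fold above control. As raw brightness, the processed signal was 119 and 166 in the NEKO females and 900.2 and 974 in the NEKO males, against 6.27 to 22.6 in controls. The lowest NEKO value lay 2.50 log2 units above the highest control value, the widest gap of the 10. The bound was 6.56-fold within the females and 42.1-fold within the males.

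Gng4 encodes a gamma subunit of heterotrimeric G proteins. Its level was -4.70 and -4.83 in the NEKO females and -3.84 and -3.65 in the NEKO males, against -5.88 to -5.52 in controls. The NEKO mean was -4.25 ± 0.59 (SD, n = 4), at least 2.27-fold above control. The female and male NEKO mice formed separate pairs, both above all controls. The bound was 1.75-fold within females and 2.94-fold within males.

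Kctd8 encodes an auxiliary subunit of the GABA-B receptor, a G protein-coupled receptor. Its level was -4.51 and -4.38 in the NEKO females and -4.64 and -4.96 in the NEKO males. In controls it ran from -6.22 to -5.27. The NEKO mean of -4.62 ± 0.25 (SD, n = 4) was at least 1.65-fold above control, the smallest bound of the set, and the gap between the groups was 0.30. It was the only member brighter in both NEKO females than in both NEKO males. The bound was 2.03-fold within females and 1.34-fold within males.

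Ffar4 encodes a receptor for long-chain fatty acids, also called GPR120. Its level was -3.95 and -4.37 in the NEKO females and -3.60 and -3.46 in the NEKO males. In controls it was -5.19 and -5.68 in the females and -7.00 and -5.93 in the males. This gave a NEKO mean of -3.84 ± 0.40 (SD, n = 4), at least 2.88-fold above control. The 4 NEKO mice lay close together, while 1 control male lay lower than the other controls. The bounds within females, 2.42-fold, and within males, 3.42-fold, were nearer to each other than those of Ppp2r2c.

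Wnt6 encodes a secreted ligand of the Wnt pathway. Its level was -4.98 and -4.94 in the NEKO females and -3.00 and -3.63 in the NEKO males. In controls it was -5.33 and -5.49 in the females and -6.90 and -5.96 in the males. With a mean of -4.14 ± 0.98 (SD, n = 4), the NEKO kidneys were at least 2.33-fold above control. The NEKO females lay only 0.35 above the brightest control, so that most of the distance between the groups came from the males. The bound was 1.37-fold within females and 3.97-fold within males.

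Cntnap2 encodes a cell adhesion protein of the neurexin family, known for clustering potassium channels on myelinated axons. Its level was -4.85 and -4.34 in the NEKO females and -2.81 and -2.22 in the NEKO males, against -6.88 to -5.47 in controls. Its NEKO mean, -3.56 ± 1.24 (SD, n = 4), was at least 3.68-fold above control. The array held 2 more Cntnap2 probes, designed to another RefSeq transcript, and these did not follow the first. One was well above background in NEKO replicate 5 alone, a male, at -5.07, and was -7.60 to -5.60 in the other NEKO mice. The other was above the threshold on 0 arrays. Each of the other 9 members had a single probe. Which of the annotated starts the detected transcript used was not measured.

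Map7d2 encodes a microtubule-associated protein of the MAP7 family, which recruits kinesin-1 to microtubules. Its level was -5.26 and -4.36 in the NEKO females and -1.98 and -2.34 in the NEKO males, against -7.44 to -6.38 in controls. Its mean in NEKO kidneys was -3.49 ± 1.58 (SD, n = 4), at least 3.86-fold above control. The dimmest NEKO female stood 0.03 above the detection floor of its array, the closest of any member, and without that mouse, replicate 2, the bound was 5.82-fold. The bound was 1.69-fold within females and 8.85-fold within males. Tmem74 encodes a membrane protein of lysosomes and autophagosomes that promotes autophagy. Its level was -4.59 and -4.49 in the NEKO females and -2.86 and -3.38 in the NEKO males, against -7.40 to -6.99 in controls. The NEKO mean was -3.83 ± 0.85 (SD, n = 4), at least 3.04-fold above control. The controls formed a tight and dark group, and the gap of 2.40 was second to that of Ppp2r2c.

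Meltf encodes melanotransferrin, an iron-binding protein of the transferrin family that is anchored to the cell surface. Its level was -4.58 and -4.46 in the NEKO females and -1.69 and -3.35 in the NEKO males, against -5.74 to -4.99 in controls. The NEKO mean was -3.52 ± 1.34 (SD, n = 4), at least 3.42-fold above control. NEKO replicate 5, a male, was brighter than the other NEKO mice, and without it the bound was 2.24-fold. The females lay only 0.41 above the brightest control. Aldh3a1 behaved otherwise. Its level was -4.32 in both NEKO females and -3.99 and -4.14 in the NEKO males, against -6.65 to -6.13 in controls. The NEKO mean was -4.19 ± 0.16 (SD, n = 4), at least 2.36-fold above control, and this was the smallest NEKO spread of the 10. The bounds within females and within males were 2.37-fold and 2.36-fold.

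**Figure D2:**
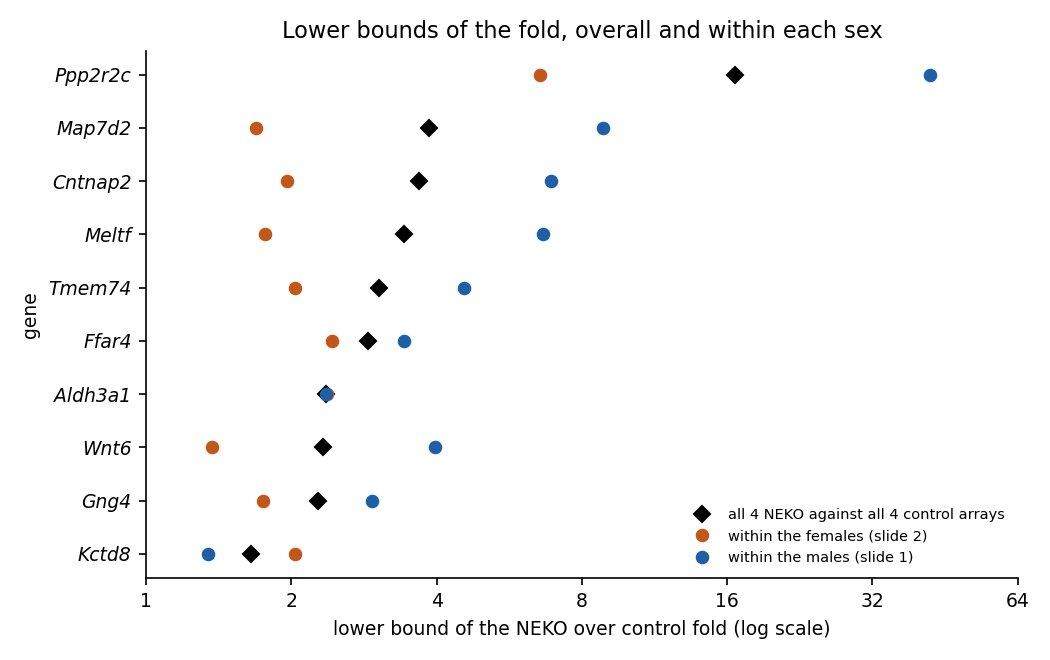
Lower bound of the NEKO over control fold for each gene on a log scale, over all 8 arrays (diamonds), within the females (orange) and within the males (blue). The bounds of Ppp2r2c run from 6.56-fold in females to 42.1-fold in males, those of Aldh3a1 coincide near 2.36-fold, and that of Kctd8 is 2.03-fold in females and 1.34-fold in males.

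The members closest to a detection floor were, after Map7d2, Wnt6 at 0.31, Kctd8 at 0.32, Cntnap2 at 0.44 and Gng4 at 0.56 log2 units. Each distance is from the floor of the array on which the member was closest to it. It is not a distance to the threshold, because a probe can lie above the floor without the flag. Cela1 did so in NEKO replicate 2, at -4.84 with a floor of -5.29. Just outside the rule were 20 genes that no control array detected and that 3 of the 4 NEKO arrays did. The array that missed was that of NEKO replicate 2, a female, for 11 of them, that of replicate 3, the other female, for 5, and that of each male for 2. The brightest 5 by NEKO mean were Sprr2f, Ces1b, Adam23, Cela1 and Gjb6, all missed in replicate 2. Sprr2f, a cornified envelope precursor of squamous epithelia, was -7.38 in that mouse, -4.92 in the other NEKO female, and 2.46 and 1.75 in the males. Adam23, a catalytically inactive disintegrin known from neurons, was -6.16, -4.86, -2.09 and -1.81 in the same order. Ces1b, a carboxylesterase, was -5.62, -2.05, -1.51 and -4.76. Cela1, an elastase, ran from -4.84 to -2.15, and Gjb6, a gap junction connexin, from -5.30 to -3.04.

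Of the 18 probes with the pattern, 3 had no gene name and were not counted. They were NAP108451-1, with a NEKO mean of -2.44 ± 1.14 (SD, n = 4) and a bound of 8.00-fold, and AK084311 and AK005014, with bounds of 1.50-fold and 1.41-fold. The 4 named genes left out by symbol were Adh7, Clec4d, Cyp4f39 and Ugt2b35. The remaining probe was one of Gm5622, which had another probe well above background in controls. The member count without each mouse in turn ran from 10 to 21. All 10 members were kept each time, which is bound to happen because the rule then has fewer arrays to meet. The 21 came without NEKO replicate 2, the mouse in which 7 of the 10 members were dimmest. No member was dimmest in replicate 5, a male, in which 6 of the 10 were brightest.

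The NEKO males and females were then compared, a contrast the rule did not use, although it required detection in both sexes. Map7d2, Tmem74 and Gng4 were higher in NEKO males than in NEKO females. The difference was 2.65 ± 0.33 (log2, SE) for Map7d2, with a limma adjusted p of 0.026, 1.42 ± 0.19 for Tmem74, with 0.033, and 1.02 ± 0.14 for Gng4, with 0.033. These were 3 of 10 members, beside 0.725% of all 19593 features called higher in NEKO males and 0.857% called lower. Those background calls, 310 in both directions, fell to between 55 and 178 without any 1 mouse and to 12 with only the 4 NEKO arrays. Ppp2r2c differed most, by 2.90 ± 0.48, but missed the threshold with an adjusted p of 0.052. Neither Cntnap2 at 2.08, Meltf at 2.00 nor Wnt6 at 1.65 passed, with adjusted p-values of 0.096, 0.13 and 0.077. Ffar4 at 0.63 and Aldh3a1 at 0.26 differed least among the genes brighter in males, with adjusted p-values of 0.41 and 0.48, and Kctd8 at -0.35 had 0.57. Both NEKO males were above both NEKO females for 9 of the 10 members. The share of all features with this separation was not counted, so the 9 have no background to be set against. The median difference over the members was 1.53, against 0.02 over all features tested. Every member passed the filter for testing through the 4 NEKO arrays alone, while the features set beside them were not chosen that way. The calls and the median are therefore not compared with a like set, and no trait of the members as a set is read from them.

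The 3 calls rest on few mice, and in this contrast sex and slide coincide. The fit took its spread from all 8 arrays, so control values under the detection threshold entered the standard errors. The calls were 0 when only the 4 NEKO arrays entered the fit, and the count was also 0 without control replicates 1 or 8 or NEKO replicates 2 or 5. It was 1 without NEKO replicate 3, when only Map7d2 was called, and 1 without NEKO replicate 6, when only Tmem74 was called. Under a normexp background correction 3 members were called, but they were Cntnap2, Map7d2 and Ppp2r2c. In controls the members lie below the detection threshold, so no difference between the sexes is read from those values. A limma term for whether the sex difference itself differed between NEKO and control kidneys leans on them too. That term is built from the same NEKO and control values that the rule used, so nothing about the members is concluded from it. It called 0 of the 10 members, with a lowest adjusted p of 0.091. At an unadjusted p under 0.05 there were 8, with no share of all features counted beside them.

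**Figure D3:**
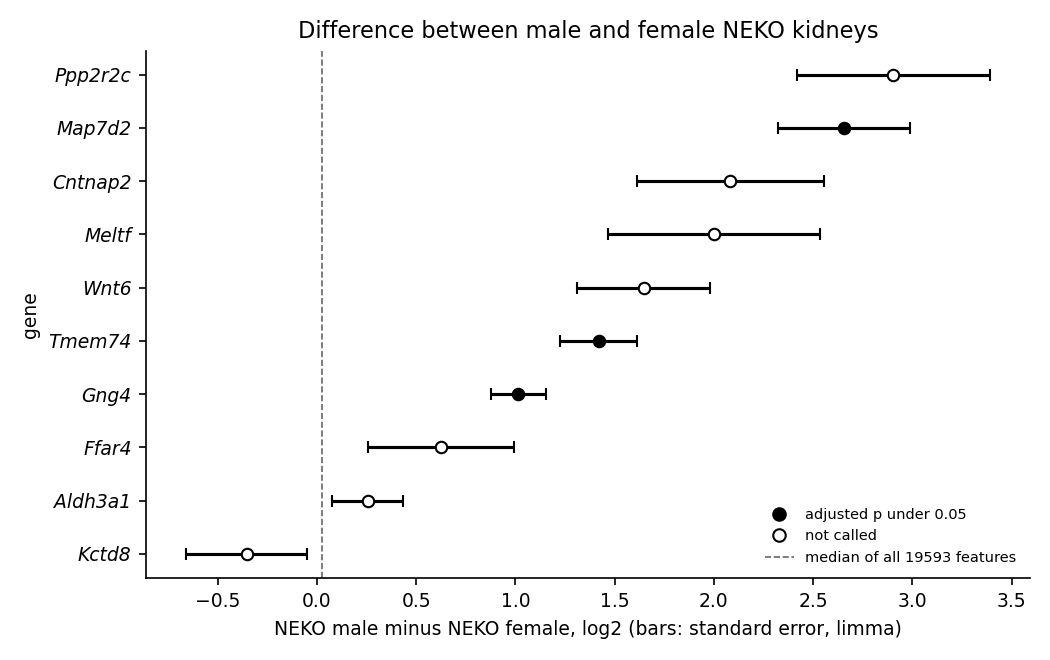
NEKO male minus NEKO female difference of each gene on the log2 scale, with its standard error from limma (2 mice of each sex), and filled points where the adjusted p was under 0.05. Map7d2, Tmem74 and Gng4 are filled, Ppp2r2c has the largest difference at 2.90, and Kctd8 alone lies below the dashed line, the median of all features at 0.02.

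Other gene groups differed between the NEKO sexes in the same fit, and their part in the difference was not tested. The control sexes are not compared here, so none of these differences can be called particular to NEKO kidneys. NRF2 targets without Aldh3a1 were higher in NEKO males for 7 of 39 genes tested: Gpx2, Pgd, Cbr3, Akr1b8, Ptgr1, Blvrb and Gstp1. None was called lower, and the summed level was 1717 to 1778 times the 75th percentile signal in NEKO females and 2808 to 2972 times in NEKO males. T and NK cell markers were higher in NEKO males for 5 of 10 genes tested, with a summed level of 0.467 and 0.532 in the females and 1.14 and 1.44 in the males. Those 5 were Cd3d, Cd3g, Cd5, Gzmb and Nkg7, while Cd4, Cd28 and Ncr1 stayed under the detection threshold on all 8 arrays. Of 11 neutrophil markers on the array 4 could be tested and 0 were called in limma, with a median difference of 1.95. The sums of the list were 0.584 and 0.658 in the females and 1.80 and 7.06 in the males. S100a9 made up 45.87% to 85.15% of the sum over the 8 arrays, and without it the NEKO sums were 0.184 to 1.05. Intercalated cell markers were lower in NEKO males for 2 of 5 genes, Slc26a4, a chloride and bicarbonate exchanger, by -2.13 ± 0.21 (log2, SE, limma adjusted p = 0.015), and Atp6v1g3, a proton pump subunit, by -0.98. Their sums were 22.2 and 23.3 in the females and 6.24 and 12.8 in the males. Of the other lists, 7 had a single call. The gene was higher in NEKO males for Trem2 of macrophages at 2.59, Thy1 of fibroblasts at 1.87, Upk2 of urothelium at 1.85, Cd44 of injured tubules at 1.49 and Slc22a6 of the proximal tubule at 0.92. It was lower for Hsd11b2 of principal cells at -1.44 and Kcnj1 of the thick ascending limb at -0.91. These counts rest on the same few mice as those of the members: without each mouse in turn the NRF2 count ran from 2 to 7 and the T and NK count from 0 to 3, and both were 0 with only the 4 NEKO arrays in the fit.

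Between NEKO and control kidneys, 3 of the 39 NRF2 targets rose and 0 fell. Gpx2, a glutathione peroxidase of epithelia, rose by 5.40 ± 0.46 (log2, SE, limma adjusted p = 0.011), from -3.85 ± 0.26 to 1.54 ± 1.20 (SD, n = 4 each). Gstp1, a glutathione transferase, rose by 1.57 ± 0.20 (adjusted p = 0.049 in limma), and Txnrd1, which reduces thioredoxin, by 1.30 ± 0.17 (adjusted p = 0.049 in limma). Over all features 0.097% were called higher and 0.128% lower. The NEKO mean was above the control mean for 38 of the 39 targets, with a median difference of 1.05 against -0.03 over all features. Nqo1, a quinone reductase that is a common readout of NRF2, was 2.62 ± 0.43 higher but missed the threshold (adjusted p = 0.065 in limma). At an unadjusted limma p under 0.05, 34 of the 39 were higher and 0 lower, but the share of all features at that level was not counted. The count of adjusted calls depended on the settings, from 0 to 20, and was 0 without control replicate 7 and 1 or 2 without any other mouse.

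Relatives of the members were mostly detected in control kidneys too. Of 61 relatives, listed after the members were known, 57 were named on the array, 32 were well above background on all 4 control arrays, 17 on none, and 37 could be tested. Only Tfrc was called, and it was higher in NEKO kidneys by 1.67 ± 0.13 (log2, SE, limma adjusted p = 0.0075). Tfrc, the transferrin receptor, imports iron into cells. It was listed with Meltf among transferrins and their receptors, and a link between the genes was not tested. The level of Tfrc was 1.57, 2.08, 2.54 and 2.38 in the NEKO mice and 0.22 to 0.79 in controls, with no overlap. The transferrin Trf and the receptor Tfr2 differed by 0.51 and 1.07, with limma adjusted p-values of 0.41 and 0.25.

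The other 36 relatives tested gave 0 calls between NEKO and control kidneys in limma. Of them 8 had an unadjusted p under 0.05, with no share of all features counted beside them. All 7 phosphatase 2A subunits tested, among them Ppp2r2a at 0.13 and Ppp2r2b at -0.56, were well above background on every control array, with a median difference of 0.04 and a lowest adjusted p of 0.17 in limma. Of 18 other Wnt ligands, 9 could be tested and 8 were not well above background on any control array. Wnt9b was 1.50 ± 0.25 higher (adjusted p = 0.067 in limma), at -2.48 to -1.37 in NEKO mice against -3.56 to -2.98 in controls. Wnt10a was 1.37 ± 0.56 higher (adjusted p = 0.27 in limma), at -0.29 and -0.12 in the NEKO males and -1.69 and -1.81 in the NEKO females, and the females lay within the control range of -3.54 to -1.58. Among G protein gamma subunits Gng8 was 0.90 ± 0.46 higher (adjusted p = 0.35 in limma), at -4.53 and -5.04 in the NEKO females and -2.93 and -2.95 in the NEKO males. Of the contactin-associated proteins only Cntnap1 was tested, and 4 of 6 were not well above background on any control array. Between the NEKO sexes, Wnt7b and Kctd12 were lower in males, by -1.30 and -0.93, with limma adjusted p-values of 0.049 and 0.038.

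**Figure D4:**
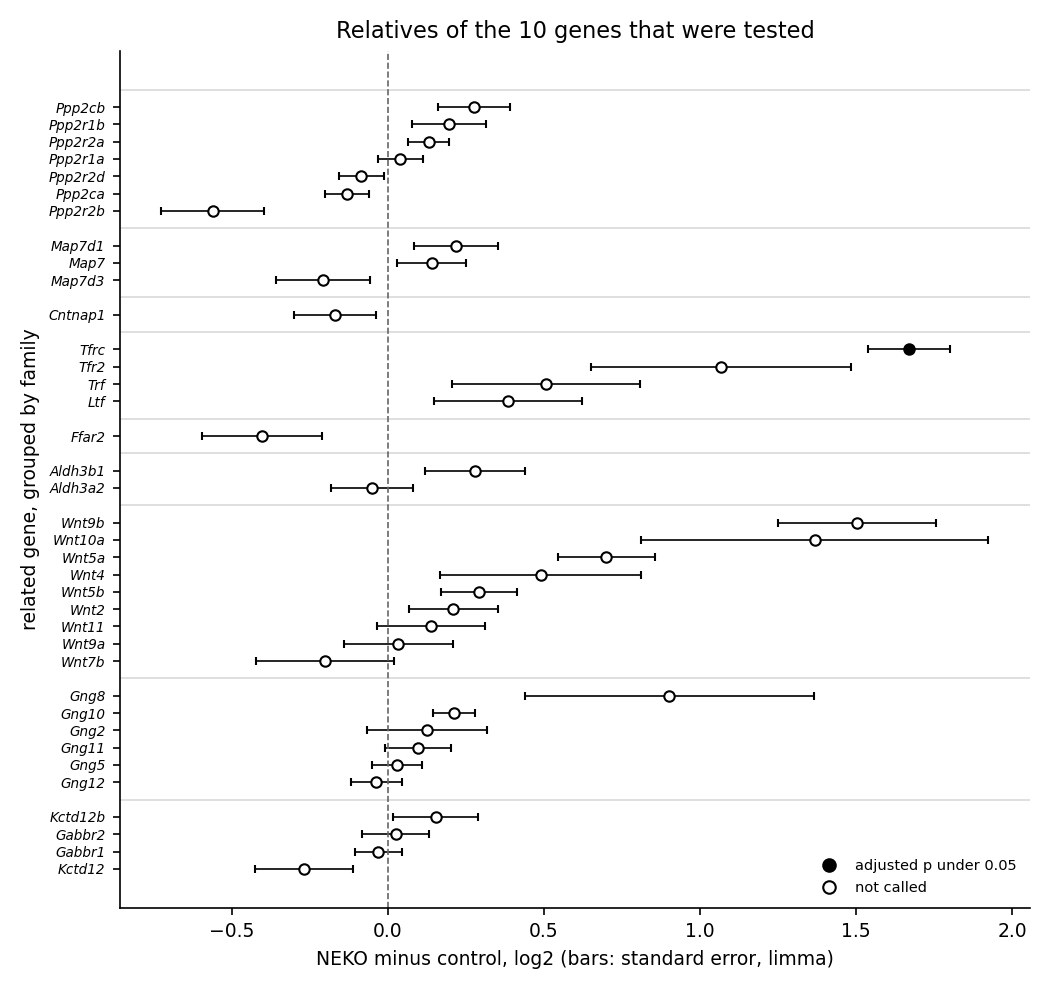
NEKO minus control difference on the log2 scale, with its standard error from limma, for the 37 tested relatives of the members, grouped by family and ordered by size within each. Tfrc is the only filled point, at 1.67, and most others lie near 0.

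The members lay on 9 chromosomes, and 0 of them were on that of Keap1. Their nearest tested neighbours in RefSeq gene order, 20 genes, gave 0 calls between NEKO and control kidneys. Of the 20, 5 had an unadjusted limma p under 0.05, with no share of all features counted beside them. The lowest adjusted p, 0.070 in limma, was for Prkag3, a gamma subunit of AMP-activated kinase that lies beside Wnt6. Prkag3 was 1.52 log2 units lower in NEKO kidneys, at -4.16 to -2.54 against -2.26 to -1.79 in controls. Wnt10a lies on the other side of Wnt6. Rbp4, the plasma retinol carrier, lies beside Ffar4 and was 1.18 ± 0.46 higher (adjusted p = 0.24 in limma).

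Markers of other cell types that whole kidney RNA could hold, and of tubular injury, gave 1 call between NEKO and control kidneys in 145 genes tested over 22 lists. It was Actn3, a muscle actinin, called lower in NEKO kidneys (limma adjusted p = 0.011). Actn3 was well above background on all 4 control arrays but on only 1 NEKO array, so it passed the filter through the controls, and its level of -5.22 ± 0.22 in NEKO kidneys, against -4.15 ± 0.27 in controls (SD, n = 4 each), lies near the detection floor. Intercalated cell markers had sums that did not overlap, 6.24 to 23.3 in NEKO and 35.5 to 47.9 in control kidneys. All 5 had a lower NEKO mean, with a median difference of -0.90, and 0 passed. Slc26a4 was 2.07 ± 0.39 (log2, SE) below control, at 2.62 ± 1.25 against 4.69 ± 0.20 (SD, n = 4 each), with a limma adjusted p of 0.081.

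Several members are best known from neurons, Ffar4 also from fat, and the lists of these and of squamous tissue and urothelium are therefore described further. Of the neuron and neuroendocrine markers, Snap25, Gap43, Chga and Scg2 stayed under the detection threshold on all 8 arrays, and 0 of the 5 tested passed in limma. The NEKO minus control differences were 0.60 for Nefl, 0.06 for Tubb3, -0.34 for Stmn2 and -1.28 for Syn1. Elavl4 was at -4.64 ± 0.78 in controls (SD, n = 4) and well above background on only 1 NEKO array. The sum of the list was 17.3 to 30.6 in NEKO and 24.8 to 174.8 in control kidneys, but Syn1 made up 98.0% to 99.8% of it. Without Syn1 the sums were 0.331 to 0.589 and 0.356 to 0.459. Adipocyte markers had a higher NEKO mean for 5 of 5 genes, with a median difference of 1.28 and 0 calls, and their sums overlapped at 5.64 to 41.5 in NEKO and 1.93 to 36.1 in control kidneys. Urothelium markers had a higher NEKO mean for 8 of 10 genes, with a median difference of 0.94 and 0 calls. The largest were Krt5 at 1.85 and Upk2 at 1.80, with limma adjusted p-values of 0.14 and 0.19. Their sums without Krt7, which made up at least 76.0% of the whole, were 3.80 to 7.16 in NEKO and 1.80 to 4.50 in control kidneys. Stratified squamous markers had a higher NEKO mean for 8 of 11 genes, led by Sprr1a at 1.88 and Lypd3 at 1.67, with a median of 0.44 and 0 calls. Without Sprr2a1, at least 81.8% of the whole, their sums were 10.73 to 13.7 in NEKO and 9.03 to 11.2 in control kidneys. The part of these cell types in the members' levels was not tested.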

How the data were processed

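Kidney RNA of 4 NEKO and 4 control mice was measured on Agilent 1-colour arrays, read with Feature Extraction 10.7.3.1. The authors deposited an intensity for each spot, in which the processed signal is background-subtracted. They also deposited a table of log2 values; when log2 processed signals were scaled to each array's 75th percentile and then centred by probe median, 0 of 328632 differed from that table by 0.01 or more. Outlier spots, 73 to 172 of 43379 per array, were left out, and spots of a probe were averaged. Of 41174 probes, 26690 were named by transcript accession through RefSeq (GRCm38.p6). The array annotation uses mm9, so the only coordinates given are those of the RefSeq promoters. Tests used probes detected (well above background) on 4 or more of the 8 arrays with values on 6 or more, taking the brightest such probe of each gene. The filter can admit genes through 1 group.

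limma 3.58.1 (R 4.3.3) was fitted across 19593 features, of which 13570 were named genes, with Benjamini-Hochberg adjustment over all of them and calls at an adjusted p under 0.05. NEKO males and females were compared in a model with a mean for each genotype and sex, and genotypes with sex as a covariate. The code was tested on simulated data. Replicates are separate mice. All 10 members are named, with the 5 genes nearest outside the rule, Keap1, and up to 4 called genes of each of 23 lists; other genes in the text were chosen after their values were seen. Members, lists and relatives were chosen with earlier results of these data known. Alternatives were another detection flag, a gap between groups, families kept, normexp (offset 50, on the median signal), quantile and median scaling, the deposited table, other filters, fits and tests, and leaving out each mouse. The number of arrays limits the precision.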

Additional observations from a re-analysis of the deposited data

Results flagged for a closer look

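Within groups of 4 mice, 2 of the 34 groups looked at held a mouse far from the others, where chance gives about 1 in 20. Both concern genes that are not among the 10. For Wnt9b, control replicate 4, a male, was at -2.98 while the other controls were at -3.56 to -3.51, a gap of 0.917 of the group's range. For Rbp4, NEKO replicate 3, a female, was at -0.86 while the other NEKO mice were at 0.25 to 0.44, a gap of 0.854 of the range. Rbp4 was given only as a neighbour of Ffar4. No NEKO or control group of a member, and neither group of Keap1, held such a mouse.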

How the results depend on the processing

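The count of 10 members became 4 with the positive and significant flag and 4 when a gap of 1 log2 unit was required (Aldh3a1, Map7d2, Ppp2r2c and Tmem74), was 14 with all families kept, and ran from 10 to 21 without each mouse. The 3 members called between NEKO males and females became 0 with no filter on dim probes, 0 with the 4 NEKO arrays alone and 0 with the methods' t-test after Benjamini-Hochberg, and 0 to 2 without each mouse. A trend in eBayes without robust, chosen after seeing the data, called 2, of which 1 was shared. The difference of Kctd8 turned to 0.029 under normexp. The 3 NRF2 targets called became 9 under normexp, 1 with no filter, 1 with detection on all 8 arrays, 7 with trend and robust, 7 with array weights, 19 and 0 with the methods' t-test without and with adjustment, 20 with the effect averaged over the sexes, chosen after seeing the data, and 0 to 2 without each mouse; 0 were called lower in any of these. For the marker lists the 1 call became 4 under normexp, and, in alternatives added after seeing the data, 0 with detection on all 8 arrays, 2 with trend and robust, 4 with array weights, 0 with no sex term, 23 and 0 with the methods' t-test without and with adjustment, 17 averaged over the sexes, and 0 to 2 without each mouse. Under normexp the bounds of the folds were lower for every member, at 1.31-fold to 5.90-fold. No bound fell below 1-fold in any alternative, but the rule that chose the members all but sets this, so it is no check. Without each mouse in turn, the bounds ran from 1.56-fold for Kctd8 to 24.8-fold for Ppp2r2c. The 7 NRF2 targets and 5 T and NK markers called between the NEKO sexes, refitted after seeing the data, became 12 and 5 with trend and robust. A gene name column and slide as a block were not run, the first because none was used here and the second because slide and sex coincide; with detection required on all 8 arrays no member could be tested. No paired analysis was possible because the groups share no replicate number. Members near background have the least precise values.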
